A study of Homo sapiens with 15 samples.

Results

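HEK293T cells given siRNA against LOC550643, the gene that encodes the NoBody microprotein, were set against HEK293T cells given siRNA against GAPDH. The comparison rests on 6 of the 15 arrays of the series, 3 per siRNA, chosen by the siRNA named in their titles. HEK293T is a human embryonic kidney line that carries the SV40 large T antigen. LOC550643 was silenced with a pool of 4 siRNAs. Each remaining group received siRNA against GAPDH, siRNA against Dcp2 or DcpS, or a non-silencing siRNA that matches no human gene, and each group had 3 arrays. All cells, controls included, were transfected with Dharmafect 1, and 48 hours later had actinomycin D (1 ug per mL) added for 4 hours before total RNA was taken. GAPDH siRNA served in the study as a control for silencing an unrelated protein. Where levels of a gene are given, the non-silencing level stands beside them, since it tells which of the siRNAs had departed from it. A difference given without levels does not tell which siRNA had departed. Whether the replicates were separate cultures is not stated in the labels, and p-values therefore cover the spread among these arrays alone, part or all of which may be technical.

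NoBody is a small protein that binds the mRNA decapping complex, in which DCP2 removes the 5′ cap of an mRNA with the help of DCP1 and EDC scaffold proteins. Decapping factors gather in cytoplasmic granules called P-bodies, and a decapped mRNA is degraded by the exonuclease XRN1. GAPDH is the glycolytic enzyme that oxidises glyceraldehyde 3-phosphate. Actinomycin D blocks transcription, so a level measured after it reflects both the amount of mRNA present beforehand and its decay.

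Levels are deposited log2 values, taken from 1 probe set per gene (the brightest over the 15 arrays), for 14884 genes. Over all probe sets, named or not, the correlation between 2 arrays of the same siRNA ranged from 0.986 to 0.991, and between a LOC550643 and a GAPDH siRNA array from 0.984 to 0.988. The median over all probe sets was between 4.01 and 4.08 on every array, and no arrays held identical values. A main axis of variation inside groups took 24.7% of the within-group variance. Replicate 3 stood at the low end of it with both LOC550643 siRNA (score -11.6) and GAPDH siRNA (score -11.8). Of 12 genes listed as markers of HEK293T cells 7 were measured. Their mean level was 6.86 to 7.01 in LOC550643 siRNA arrays, 6.89 to 7.03 in GAPDH siRNA arrays and 6.88 to 7.11 in non-silencing arrays, with none of the 7 called. With LOC550643 relative to GAPDH siRNA, 2 of the 7 were higher and 5 lower. The largest differences were 0.77 for IRS4 (limma adjusted p = 0.115) and -0.46 for VIM (0.119), so the mean hides opposite differences. In total RNA, fewer cells of one state and less RNA per cell cannot be told apart.

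The GAPDH transcript was examined first, as the check of the silenced gene. It measured 7.11, 7.14 and 7.36 in LOC550643 siRNA arrays, against 6.10, 6.11 and 5.69 in GAPDH siRNA arrays and 7.12, 7.17 and 7.30 in non-silencing arrays. The GAPDH siRNA arrays lay below all others, and the LOC550643 and non-silencing arrays overlapped. GAPDH was 1.24 ± 0.11 log2 units (SE) higher with LOC550643 siRNA than with GAPDH siRNA, 2.36-fold (95% interval 0.99 to 1.48 log2 units, limma adjusted p = 2.20e-05). The error given with every difference below is likewise the SE of the fit. The difference of 0.0063 log2 units between LOC550643 siRNA and non-silencing siRNA had an adjusted p of 0.991. LOC550643 itself and DCPS are on no named probe set and are not analysed here, so the silencing of LOC550643 was not checked on these arrays. DCP2, whose product NoBody binds through the decapping complex, averaged 8.54 ± 0.13 in LOC550643 siRNA arrays, 8.40 ± 0.12 in GAPDH siRNA arrays and 8.14 ± 0.13 in non-silencing arrays (SD, n = 3 each). Its difference of 0.14 log2 units between the LOC550643 and GAPDH siRNAs was within the spread of the arrays (limma adjusted p = 0.627).

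Between LOC550643 and GAPDH siRNA, 608 genes (4.08% of 14884) had a limma adjusted p below 0.05 and are referred to as called. Of these, 369 (2.48%) rose and 239 (1.61%) fell with LOC550643 siRNA relative to GAPDH siRNA. A difference of at least 1 log2 unit was reached by 24 called genes, 12 in each direction, and the median size over called genes was 0.527. The share of called genes that were higher was 60.7%, but it was 49.7% after median centring of each array and 47.3% after a further quantile normalisation, so these data do not fix the balance of higher and lower genes. The number of calls was 304 without LOC550643 replicate 1, 388 without LOC550643 replicate 2 and 377 without GAPDH replicate 1. The arrays of the LOC550643 and GAPDH siRNAs did not overlap for 3219 genes (21.6%), with LOC550643 siRNA above for 1670 (11.2%) and below for 1549 (10.4%).

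**Figure D1:**
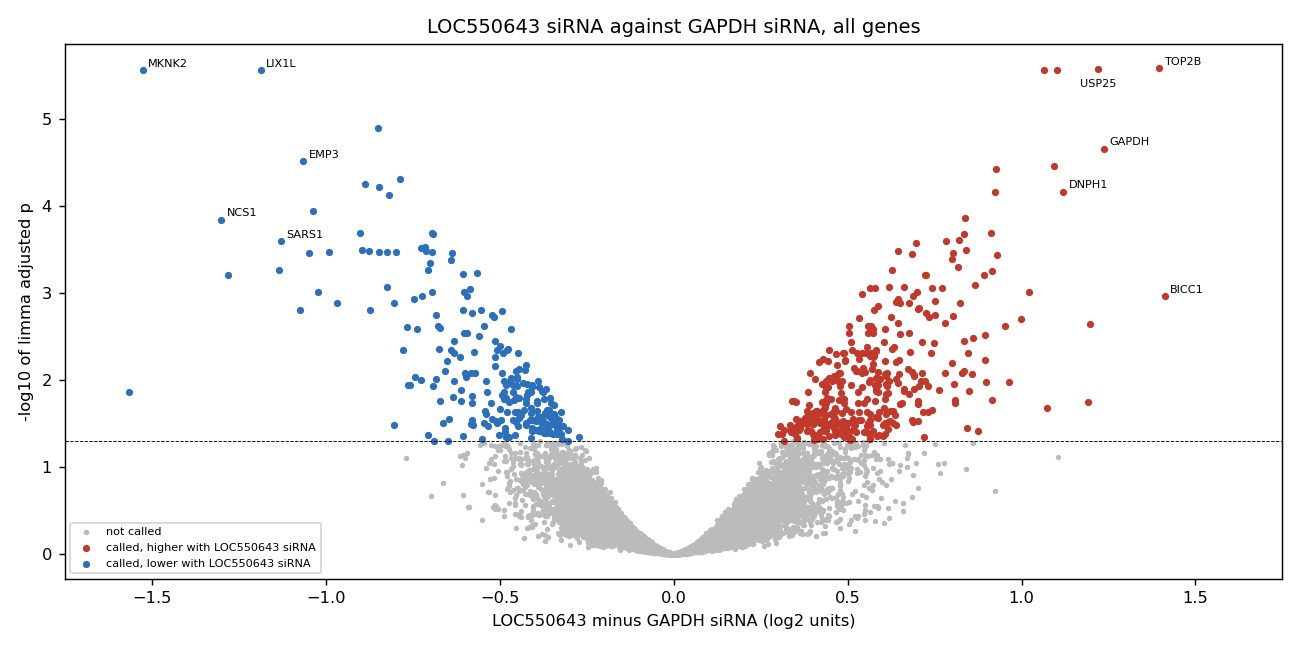
Each point is 1 of 14884 genes, with the difference LOC550643 minus GAPDH siRNA (log2 units) on the horizontal axis and -log10 of the limma adjusted p on the vertical axis. The dashed line marks the adjusted p of 0.05, above which lie 369 higher genes in red and 239 lower genes in blue.

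The 608 called genes were divided by which siRNA was also called against non-silencing siRNA. A siRNA without a call may still have departed. GDAP1, counted for LOC550643 siRNA alone, was 0.54 above non-silencing siRNA with GAPDH siRNA (limma adjusted p = 0.160). EIF4EBP2, counted for GAPDH siRNA alone, was 0.31 above it with LOC550643 siRNA (limma adjusted p = 0.176). LOC550643 siRNA alone was called against non-silencing siRNA for 108 genes (17.8%), of which 25 were higher and 83 lower with LOC550643 siRNA. GAPDH siRNA alone was called against non-silencing siRNA for 151 genes (24.8%), and here the split ran the other way, with 122 higher and 29 lower with LOC550643 siRNA relative to GAPDH siRNA. Both siRNAs were called for 7 genes and neither for 342 (56.2%). Over all genes, 233 (1.57%) were called for LOC550643 siRNA against non-silencing siRNA, 98 higher (0.658%) and 135 lower (0.907%). For GAPDH siRNA against non-silencing siRNA 297 (2%) were called, 108 higher (0.726%) and 189 lower (1.27%). These comparisons share arrays, so the classes are counts and carry no test of their own. They take no account of the Dcp2 and DcpS siRNAs, so a departure need not be particular to 1 siRNA. The LOC550643 class fell to 48 genes without non-silencing replicate 1, and the GAPDH class to 80 without non-silencing replicate 2.

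**Figure D2:**
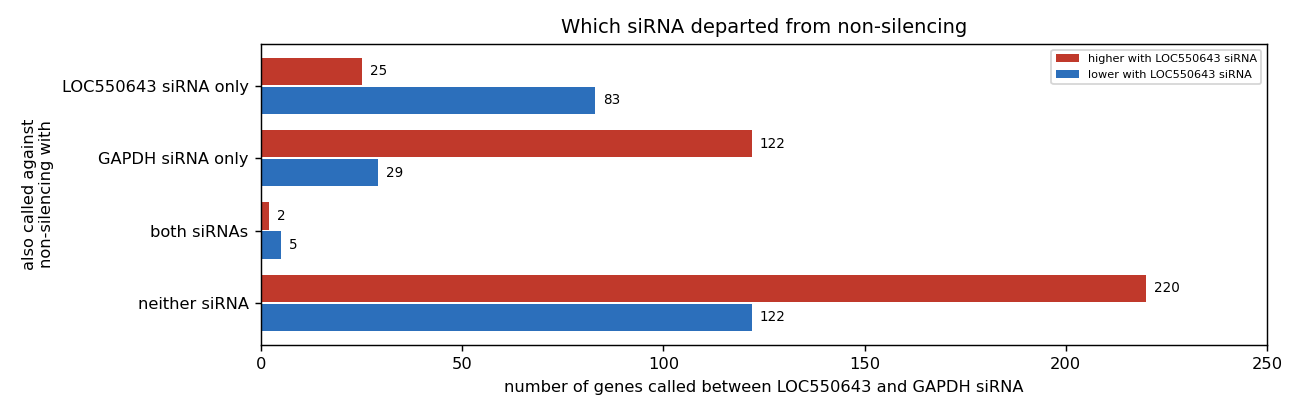
Bars give the number of genes called between LOC550643 and GAPDH siRNA (horizontal axis) by which siRNA was also called against non-silencing siRNA. Red bars count genes higher and blue bars genes lower with LOC550643 siRNA: 25 and 83 where LOC550643 siRNA alone was called, and 122 and 29 where GAPDH siRNA alone was called.

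Among the 15 genes with the largest rise, 11 were called for GAPDH siRNA alone against non-silencing siRNA and the other 4 for neither siRNA. TOP2B, a type II topoisomerase that relieves DNA supercoils and is also active in non-dividing cells, measured 8.85, 8.60 and 8.56 in LOC550643 siRNA arrays, against 7.30, 7.26 and 7.26 in GAPDH siRNA arrays and 8.67, 8.42 and 8.50 in non-silencing arrays. The GAPDH siRNA arrays lay far below the others and close to one another. TOP2B was 1.39 ± 0.10 log2 units higher with LOC550643 siRNA, 2.63-fold (limma adjusted p = 2.64e-06). USP25, a protease that removes ubiquitin from proteins, measured 8.15, 8.05 and 8.03 in LOC550643 siRNA arrays, against 6.92, 6.80 and 6.84 in GAPDH siRNA arrays and 8.05, 7.90 and 7.84 in non-silencing arrays. Its LOC550643 and non-silencing arrays overlapped and its GAPDH siRNA arrays stood apart, with a difference of 1.22 ± 0.09 (limma adjusted p = 2.68e-06). SLBP, which binds the stem-loop at the end of histone mRNAs, measured 9.27, 9.10 and 9.23 in LOC550643 siRNA arrays, against 8.15, 8.01 and 8.14 in GAPDH siRNA arrays and 9.10, 8.97 and 9.16 in non-silencing arrays. It was 1.10 ± 0.09 higher with LOC550643 siRNA (limma adjusted p = 2.78e-06), again with the GAPDH siRNA arrays apart from both other groups.

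DNPH1, a hydrolase that clears abnormal deoxynucleotides, measured 9.39, 9.47 and 9.40 in LOC550643 siRNA arrays, against 8.39, 8.41 and 8.11 in GAPDH siRNA arrays and 9.84, 9.41 and 9.54 in non-silencing arrays. Its difference was 1.12 ± 0.12 (limma adjusted p = 6.90e-05). AGFG1, a protein with nucleoporin-like repeats that takes part in RNA export, averaged 8.73 with LOC550643 siRNA, 7.64 with GAPDH siRNA and 8.63 with non-silencing siRNA, a difference of 1.09 between the first and second. ATMIN, a zinc finger protein that interacts with the DNA damage kinase ATM, averaged 8.46 with LOC550643 siRNA, 7.39 with GAPDH siRNA and 8.32 with non-silencing siRNA, a difference of 1.07. In both genes the GAPDH siRNA arrays lay below all LOC550643 and non-silencing arrays. The same order of means was found for NCR3LG1, the surface ligand B7-H6 that natural killer cells recognise, at 7.62 with LOC550643 siRNA, 6.60 with GAPDH siRNA and 7.60 with non-silencing siRNA. GOLPH3L, a Golgi protein that binds phosphatidylinositol 4-phosphate, averaged 7.77 with LOC550643 siRNA, 6.81 with GAPDH siRNA and 7.59 with non-silencing siRNA. HCG11, a long noncoding RNA, averaged 6.33 with LOC550643 siRNA, 5.25 with GAPDH siRNA and 6.29 with non-silencing siRNA. HCG11 also averaged 5.10 with DcpS siRNA and 5.84 with Dcp2 siRNA, so its low level was not particular to GAPDH siRNA. Its call (adjusted p = 0.0207) was lost without LOC550643 replicate 1 or 2 or without GAPDH replicate 2 or 3, with adjusted p of 0.0619 to 0.0953.

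Smaller members of the same class, chosen after their values were seen, included CD63, a tetraspanin of endosomes and exosomes, which averaged 7.64 with LOC550643 siRNA, 6.72 with GAPDH siRNA and 7.71 with non-silencing siRNA. MAF1, a repressor of RNA polymerase III, averaged 7.32 with LOC550643 siRNA, 6.40 with GAPDH siRNA and 7.36 with non-silencing siRNA. Both stood at the non-silencing level with LOC550643 siRNA and below it with GAPDH siRNA. FCF1, a nucleolar factor of ribosomal RNA processing, averaged 7.45 with LOC550643 siRNA, 6.52 with GAPDH siRNA and 7.40 with non-silencing siRNA. DNMT3B, a de novo DNA methyltransferase, averaged 6.72 with LOC550643 siRNA, 5.92 with GAPDH siRNA and 6.62 with non-silencing siRNA. All 4 genes rose with LOC550643 siRNA relative to GAPDH siRNA, by 0.80 to 0.93 log2 units, and none of the 4 was called for LOC550643 siRNA against non-silencing siRNA.

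**Figure D3:**
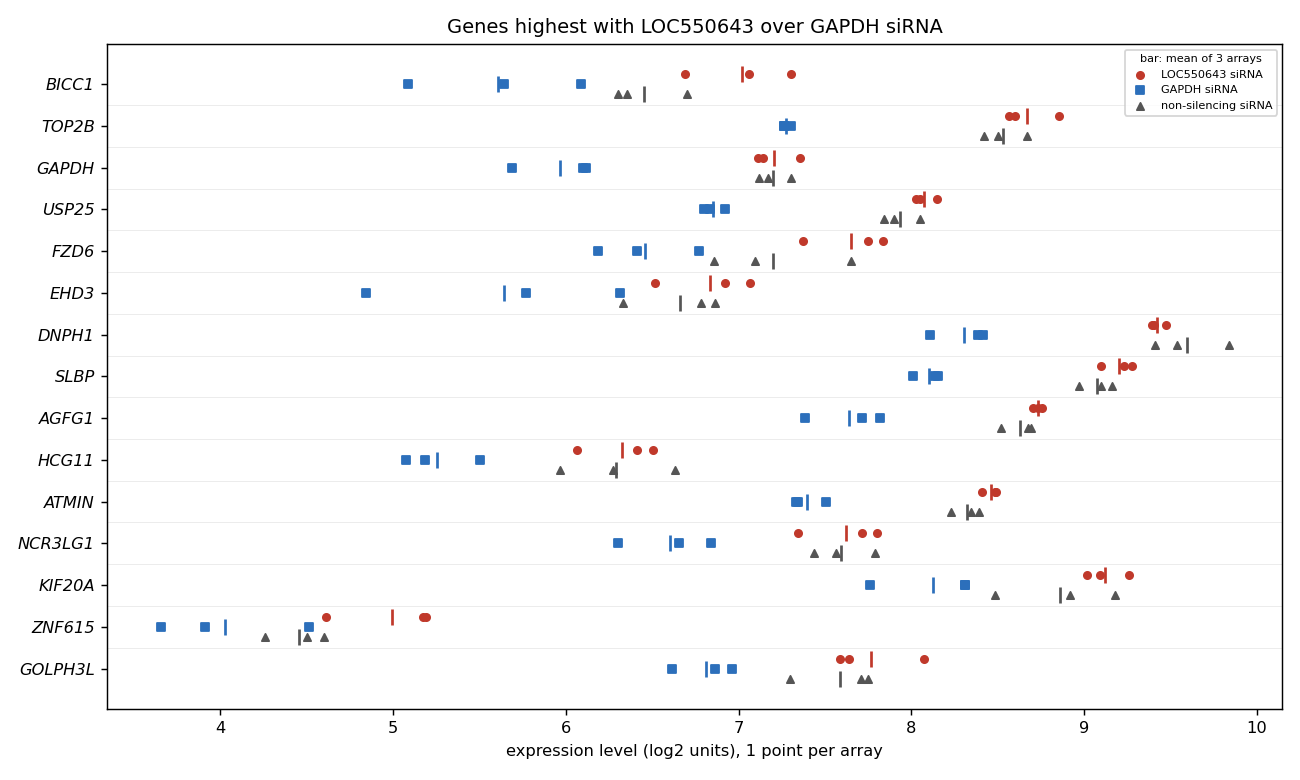
Levels in log2 units (horizontal axis) of the 15 genes with the largest rise, 1 point per array, with LOC550643 siRNA as red circles, GAPDH siRNA as blue squares and non-silencing siRNA as grey triangles, and a bar at each mean. For TOP2B, USP25, SLBP and ATMIN the red and grey points lie together and the blue points lie to their left.

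GAPDH siRNA alone was called against non-silencing siRNA, upward, for 29 genes that were lower in the LOC550643 siRNA arrays. CD68, a lysosomal membrane glycoprotein used as a macrophage marker, measured 6.51, 6.55 and 6.54 in LOC550643 siRNA arrays, against 7.49, 7.50 and 7.32 in GAPDH siRNA arrays and 6.42, 6.41 and 6.17 in non-silencing arrays. The GAPDH siRNA arrays were above all others, and the difference was -0.90 ± 0.11 (limma adjusted p = 2.04e-04). Of 11 listed blood cell markers 5 were measured and CD68 was the one called. The mean level of the 5 markers was 4.55 to 4.62 in LOC550643 siRNA arrays, 4.76 to 4.98 in GAPDH siRNA arrays and 4.46 to 4.54 in non-silencing arrays. CD68 is itself part of this mean, which therefore gives no separate reading of the CD68 difference. YRDC, an enzyme of transfer RNA modification, averaged 7.24 with LOC550643 siRNA, 8.23 with GAPDH siRNA and 7.59 with non-silencing siRNA. Its difference of -0.99 ± 0.13 had a limma adjusted p of 3.35e-04.

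Of the 15 genes with the largest fall, 11 were called for LOC550643 siRNA alone against non-silencing siRNA, 2 for GAPDH siRNA alone and 2 for both. NCS1, a neuronal calcium sensor protein, measured 6.80, 7.05 and 7.00 in LOC550643 siRNA arrays, against 8.38, 8.08 and 8.29 in GAPDH siRNA arrays and 8.47, 7.97 and 8.19 in non-silencing arrays. The LOC550643 arrays lay below every other array of these groups, and the difference from GAPDH siRNA was -1.30 ± 0.15 (limma adjusted p = 1.44e-04). LIX1L, a protein with a double-stranded RNA binding domain, measured 7.72, 7.57 and 7.65 in LOC550643 siRNA arrays, against 8.94, 8.85 and 8.70 in GAPDH siRNA arrays and 8.83, 8.72 and 8.69 in non-silencing arrays. The LOC550643 siRNA arrays were again the low ones, with a difference of -1.19 ± 0.09 from GAPDH siRNA (limma adjusted p = 2.78e-06) and of -1.10 from non-silencing siRNA. LIX1L was also below the non-silencing mean (8.75) with DcpS siRNA (8.13), though not with Dcp2 siRNA (8.97). Its fall was thus not particular to LOC550643 siRNA. SARS1, the seryl-tRNA synthetase that charges serine transfer RNA, measured 7.99, 7.85 and 8.39 in LOC550643 siRNA arrays, against 9.17, 9.37 and 9.09 in GAPDH siRNA arrays and 9.27, 8.97 and 8.85 in non-silencing arrays. Its LOC550643 siRNA arrays lay below both other groups, and the difference was -1.13 ± 0.14 (limma adjusted p = 2.55e-04).

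CHD1, a chromatin remodeler of transcribed genes, averaged 6.72 with LOC550643 siRNA, 7.80 with GAPDH siRNA and 7.71 with non-silencing siRNA, a difference of -1.07 between LOC550643 and GAPDH siRNA. MYADM, a protein of membrane rafts, averaged 6.55 with LOC550643 siRNA, 7.69 with GAPDH siRNA and 7.37 with non-silencing siRNA. NRM, an inner nuclear membrane protein, averaged 6.08 with LOC550643 siRNA, 7.13 with GAPDH siRNA and 6.82 with non-silencing siRNA. HEG1, a receptor of endothelial junctions, averaged 6.48 with LOC550643 siRNA, 7.52 with GAPDH siRNA and 7.26 with non-silencing siRNA. In MYADM, NRM and HEG1 alike the LOC550643 mean was the lowest and the GAPDH siRNA mean lay a little above the non-silencing one, and only the LOC550643 siRNA was called against non-silencing siRNA. TMEM87A, a membrane protein of the Golgi, averaged 6.95 with LOC550643 siRNA, 7.97 with GAPDH siRNA and 7.70 with non-silencing siRNA. GDAP1, a protein of the outer mitochondrial membrane that promotes fission, averaged 5.04 with LOC550643 siRNA, 6.32 with GAPDH siRNA and 5.78 with non-silencing siRNA, a difference of -1.28 between LOC550643 and GAPDH siRNA. Its LOC550643 siRNA call against non-silencing siRNA stood at the threshold (limma adjusted p = 0.0499996). In TMEM87A and GDAP1 alike the LOC550643 siRNA mean was the lowest. Both were also below the non-silencing level with DcpS siRNA (7.07 and 5.28), though not with Dcp2 siRNA (7.77 and 5.94). SNHG16, a noncoding host gene of small nucleolar RNAs, averaged 9.36 with LOC550643 siRNA, 10.26 with GAPDH siRNA and 10.17 with non-silencing siRNA. CCDC167, a small coiled-coil protein, averaged 7.18 with LOC550643 siRNA, 8.15 with GAPDH siRNA and 8.00 with non-silencing siRNA. The calls between LOC550643 and GAPDH siRNA of all genes in this paragraph held without each of the 6 arrays in turn.

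**Figure D4:**
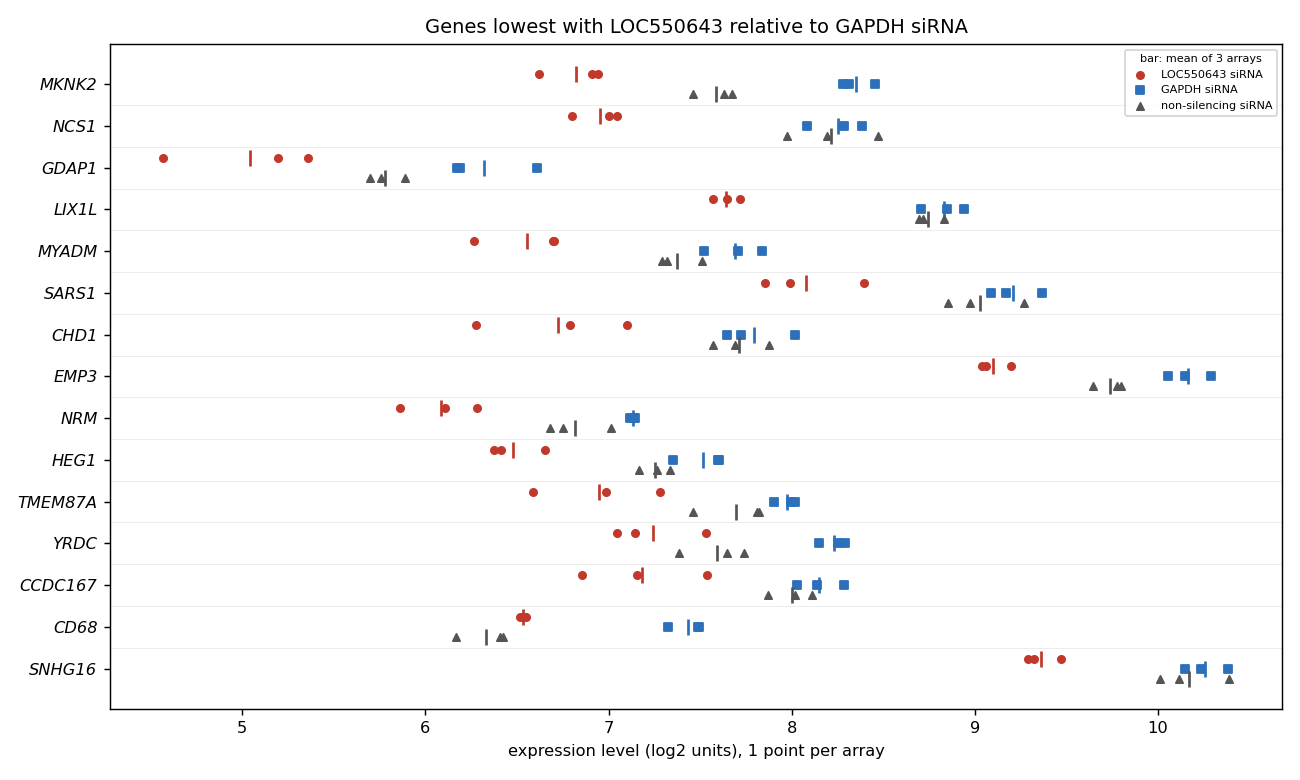
Levels in log2 units (horizontal axis) of the 15 genes with the largest fall, 1 point per array, with LOC550643 siRNA as red circles, GAPDH siRNA as blue squares and non-silencing siRNA as grey triangles, and a bar at each mean. For NCS1, LIX1L and SNHG16 the blue and grey points overlap and the red points lie to their left, while for CD68 the red and grey points lie left of the blue ones.

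LOC550643 siRNA alone was called against non-silencing siRNA, upward, for 25 genes. The 5 with the largest differences, looked up after values were seen, include 4 zinc finger genes. ZNF587 measured 5.03, 4.87 and 4.85 in LOC550643 siRNA arrays, against 4.38, 4.11 and 3.58 in GAPDH siRNA arrays and 4.00, 4.17 and 4.19 in non-silencing arrays. ZNF620 measured 6.83, 6.50 and 6.55 in LOC550643 siRNA arrays, against 5.48, 5.82 and 5.98 in GAPDH siRNA arrays and 5.96, 5.79 and 5.70 in non-silencing arrays. In both genes the LOC550643 arrays stood above all others while the GAPDH and non-silencing arrays overlapped. The GAPDH and non-silencing levels of ZNF587 lay near the array medians over all probe sets (4.01 to 4.08), so this gene was dim. The differences from GAPDH siRNA were 0.90 ± 0.15 for ZNF587 (limma adjusted p = 0.00305), 0.87 ± 0.12 for ZNF620, 0.83 ± 0.16 for ZNF417 and 0.74 ± 0.14 for ZNF749. ZNF587 and ZNF417 are close paralogs, so probes of 1 may detect transcripts of the other. PRAME, a tumour antigen that acts as a substrate receptor of a ubiquitin ligase, averaged 7.05 with LOC550643 siRNA, 6.21 with GAPDH siRNA and 6.58 with non-silencing siRNA, a difference of 0.84 ± 0.09 from GAPDH siRNA.

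In 4 of the 7 genes for which both siRNAs were called, they had moved to opposite sides of the non-silencing level. MKNK2, a kinase that phosphorylates the cap-binding factor eIF4E, measured 6.91, 6.62 and 6.94 in LOC550643 siRNA arrays, against 8.28, 8.45 and 8.31 in GAPDH siRNA arrays and 7.46, 7.63 and 7.67 in non-silencing arrays. No 2 of these groups overlapped. MKNK2 was -1.53 ± 0.12 log2 units from GAPDH siRNA, 2.88-fold lower (limma adjusted p = 2.78e-06), made up of -0.76 for LOC550643 siRNA and 0.76 for GAPDH siRNA against non-silencing siRNA. EMP3, a small tetraspan membrane protein, measured 9.04, 9.06 and 9.20 in LOC550643 siRNA arrays, against 10.29, 10.06 and 10.15 in GAPDH siRNA arrays and 9.80, 9.64 and 9.77 in non-silencing arrays, a difference of -1.06 ± 0.10 between LOC550643 and GAPDH siRNA. TMEM184B and TMEM101, both membrane proteins, had the same order of means and differences of -0.89 and -0.69. MKNK2 was also above the non-silencing level with Dcp2 siRNA (8.28) and DcpS siRNA (8.29), so its rise was not particular to GAPDH siRNA. With these siRNAs TMEM184B was above it too (7.69 and 7.36, against 7.21). TMEM101 lay close to it (8.08 and 8.06, against 8.04), and EMP3 was below it (9.58 and 9.62). NOLC1, a nucleolar phosphoprotein, was above the non-silencing level with both siRNAs, at 8.84 with LOC550643 siRNA, 8.30 with GAPDH siRNA and 7.94 with non-silencing siRNA. ZFP90 likewise averaged 7.93 with LOC550643 siRNA, 7.53 with GAPDH siRNA and 7.12 with non-silencing siRNA, and FUBP3, a single-stranded nucleic acid binding protein, was below it with both, at 7.20 with LOC550643 siRNA, 7.65 with GAPDH siRNA and 8.01 with non-silencing siRNA. The ZFP90 call (adjusted p = 0.0241) was lost without LOC550643 replicate 1 or 3 or any 1 GAPDH replicate, with adjusted p of 0.0576 to 0.106. NOLC1 was above the non-silencing level with Dcp2 siRNA (8.93) and DcpS siRNA (8.96) as well.

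The gene with the largest rise of all, BICC1, belonged to the class in which neither siRNA was called against non-silencing siRNA. BICC1, an RNA-binding protein whose loss causes kidney cysts in mice, measured 7.30, 7.06 and 6.69 in LOC550643 siRNA arrays, against 5.64, 6.09 and 5.09 in GAPDH siRNA arrays and 6.70, 6.35 and 6.30 in non-silencing arrays. The LOC550643 and GAPDH siRNA arrays did not overlap, and the non-silencing arrays lay between them apart from 1 array inside the LOC550643 range. The difference was 1.41 ± 0.21 (limma adjusted p = 0.00109). Against non-silencing siRNA, BICC1 was -0.85 with GAPDH siRNA (limma adjusted p = 0.0514), just outside the threshold, and 0.57 with LOC550643 siRNA (0.246). FZD6, a Wnt receptor, averaged 7.65 with LOC550643 siRNA, 6.46 with GAPDH siRNA and 7.20 with non-silencing siRNA, a difference of 1.20 ± 0.20. Against non-silencing siRNA, FZD6 was -0.75 with GAPDH siRNA (limma adjusted p = 0.0664) and 0.45 with LOC550643 siRNA (0.350). It averaged 6.43 with Dcp2 siRNA and 7.08 with DcpS siRNA. EHD3, an ATPase of endocytic recycling, measured 7.07, 6.92 and 6.52 in LOC550643 siRNA arrays, against 5.77, 6.32 and 4.85 in GAPDH siRNA arrays and 6.86, 6.78 and 6.33 in non-silencing arrays. GAPDH replicate 3 of EHD3 lay well below the next array, and the call (adjusted p = 0.0176) was lost without LOC550643 replicate 1 or 2 (adjusted p of 0.0657 to 0.0890). Without GAPDH replicate 3 the EHD3 difference of 1.19 became 0.79. Against non-silencing siRNA, EHD3 was -1.02 with GAPDH siRNA (limma adjusted p = 0.0646) and 0.17 with LOC550643 siRNA (0.866). It averaged 5.85 with Dcp2 siRNA and 6.66 with DcpS siRNA. ZNF615 averaged 4.99 with LOC550643 siRNA, 4.03 with GAPDH siRNA and 4.45 with non-silencing siRNA. Its GAPDH siRNA level was near the array medians over all probe sets (4.01 to 4.08). KIAA0232 averaged 6.67 with LOC550643 siRNA, 5.75 with GAPDH siRNA and 6.13 with non-silencing siRNA. The ZNF615 call was lost without LOC550643 replicate 1 or GAPDH replicate 2 (adjusted p of 0.0522 to 0.0615), and the KIAA0232 call without LOC550643 replicate 3 or GAPDH replicate 1 or 2 (adjusted p of 0.0685 to 0.0736).

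Genes of mRNA decay came next, since NoBody binds the decapping complex. The counts of list members stand beside 4.08% called, 2.48% higher and 1.61% lower over all genes tested. Of 16 measured genes of decapping and P-bodies, 13 had a positive difference, against 48.5% of all genes tested, and the median difference was 0.14, against -0.01 over all genes. DCP1B, a DCP2 cofactor, was the 1 called member (6.25%). It measured 6.13, 6.07 and 5.95 in LOC550643 siRNA arrays, against 5.73, 5.52 and 5.48 in GAPDH siRNA arrays and 5.87, 5.91 and 5.90 in non-silencing arrays. Each LOC550643 array was above each GAPDH siRNA array, and DCP1B rose by 0.47 ± 0.09 (limma adjusted p = 0.00852) with the non-silencing mean between the siRNAs. The call was lost when only the compared arrays were fitted (adjusted p = 0.0602). The RNA exosome degrades RNA from the 3′ end, and its list also held related genes that are not subunits, such as MTREX, RBM7, SKIC2 and DIS3L2. Of 18 measured members of this list 2 fell and none rose (11.1%), while 11 had a positive difference and the median was 0.08. EXOSC6, a subunit of the exosome ring, measured 7.36, 7.47 and 7.41 in LOC550643 siRNA arrays, against 8.15, 8.08 and 8.11 in GAPDH siRNA arrays and 8.11, 8.13 and 7.97 in non-silencing arrays. It stood below both other groups with LOC550643 siRNA, by -0.70 ± 0.09 from GAPDH siRNA (limma adjusted p = 4.50e-04). EXOSC6 was also below the non-silencing mean (8.07) with DcpS siRNA (7.53), though not with Dcp2 siRNA (8.17). EXOSC5, another ring subunit, averaged 8.09 with LOC550643 siRNA, 8.90 with GAPDH siRNA and 8.64 with non-silencing siRNA (adjusted p = 0.0331), a call that was lost without any 1 LOC550643 replicate and without GAPDH replicate 1 or 2 (adjusted p of 0.0508 to 0.131).

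Among 6 measured factors of nonsense-mediated decay, UPF2, which bridges the surveillance complex, rose by 0.52 ± 0.14 (adjusted p = 0.0392). Its call was lost without any 1 LOC550643 replicate and without GAPDH replicate 1 or 2 (adjusted p of 0.0634 to 0.181). UPF2 was also the 1 called gene of 17 measured transcripts listed as nonsense-mediated decay substrates, of which 14 had a positive difference. In stress granule components 1 of 10 was called, ATXN2, an RNA-binding protein that averaged 8.62 with LOC550643 siRNA, 8.18 with GAPDH siRNA and 8.34 with non-silencing siRNA, a difference of 0.45 ± 0.08 (limma adjusted p = 0.00446). No gene was called of 5 measured deadenylation genes or of 10 measured AU-rich element binding proteins. The deadenylation subunit CNOT9 had a difference of 0.33 with an adjusted p of 0.0553. No member of the LSM ring was on a named probe set.

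Glycolysis held the silenced gene, and 9 of its 25 listed genes were measured. Beside GAPDH, 2 genes fell with LOC550643 siRNA relative to GAPDH siRNA. PGAM1, the mutase of lower glycolysis, measured 8.35, 8.43 and 8.61 in LOC550643 siRNA arrays, against 9.25, 9.11 and 8.94 in GAPDH siRNA arrays and 8.45, 8.45 and 8.81 in non-silencing arrays. The GAPDH siRNA arrays were the high ones, and the difference was -0.64 ± 0.14 (limma adjusted p = 0.0156). GPI, the isomerase of upper glycolysis, averaged 10.70 with LOC550643 siRNA, 11.09 with GAPDH siRNA and 11.15 with non-silencing siRNA, and there LOC550643 siRNA was the low one. The PGAM1 call was lost without LOC550643 replicate 1 or 2 or GAPDH replicate 1 (adjusted p of 0.0568 to 0.0789), and the GPI call without LOC550643 replicate 1 or GAPDH replicate 1 (adjusted p of 0.0519 to 0.0652). Of 14 measured genes of the pentose phosphate and serine pathways, which branch off glycolysis, none was called, 9 had a negative difference and the median was -0.15.

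MondoA is a transcription factor that senses glucose 6-phosphate, and its list held its relatives and targets, 10 of 12 of them measured. TXNIP, an inhibitor of glucose uptake and the best known target, measured 10.07, 10.00 and 10.49 in LOC550643 siRNA arrays, against 10.90, 10.77 and 10.84 in GAPDH siRNA arrays and 9.39, 10.00 and 10.19 in non-silencing arrays. The GAPDH siRNA arrays were above all LOC550643 and non-silencing arrays, with a difference of -0.65 ± 0.18 (limma adjusted p = 0.0497). The LOC550643 and non-silencing arrays overlapped. TXNIP was also above the non-silencing mean (9.86) with Dcp2 siRNA (10.55) and DcpS siRNA (10.60). Its rise was thus not particular to GAPDH siRNA. ARRDC4, a second target, was not called, at 9.81 with LOC550643 siRNA, 9.65 with GAPDH siRNA and 9.05 with non-silencing siRNA. MLXIPL, the related glucose sensor ChREBP, rose by 0.56 and MLX, the dimer partner of both, fell by 0.45 with LOC550643 siRNA relative to GAPDH siRNA. The TXNIP call was lost without LOC550643 replicate 1 or 2 or any 1 GAPDH replicate (adjusted p of 0.0887 to 0.186). MLXIPL was lost without LOC550643 replicate 1 or 2 or GAPDH replicate 1 (0.0608 to 0.0851), and MLX without LOC550643 replicate 1 or 2 or GAPDH replicate 2 (0.0524 to 0.0601).

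Of 19 measured genes of cholesterol synthesis, 2 rose and none fell with LOC550643 siRNA relative to GAPDH siRNA, and 16 had a positive difference, with a median of 0.20 between LOC550643 and GAPDH siRNA. The median of the same genes was 0.01 for LOC550643 siRNA and -0.20 for GAPDH siRNA against non-silencing siRNA. SQLE, squalene epoxidase, measured 10.18, 10.01 and 10.20 in LOC550643 siRNA arrays, against 9.33, 9.31 and 9.23 in GAPDH siRNA arrays and 9.68, 9.98 and 10.05 in non-silencing arrays. GAPDH siRNA was the low group, and SQLE was 0.84 ± 0.11 higher with LOC550643 siRNA (limma adjusted p = 3.23e-04). IDI1, the isomerase that makes dimethylallyl diphosphate, averaged 8.03 with LOC550643 siRNA, 7.45 with GAPDH siRNA and 8.02 with non-silencing siRNA. Its call was lost without LOC550643 replicate 3 or GAPDH replicate 2 (adjusted p of 0.0588 to 0.0611). HMGCS1, which makes HMG-CoA, had a difference of 0.54 that missed the threshold (adjusted p = 0.21). In a list of 18 fatty acid genes that was chosen after values were seen, 13 had a positive difference and the median was 0.05. FASN, fatty acid synthase, and SCD, the stearoyl-CoA desaturase, both rose by 0.43 and ELOVL1, an elongase, fell by 0.33. FASN averaged 7.68 with LOC550643 siRNA, 7.25 with GAPDH siRNA and 7.74 with non-silencing siRNA. SCD averaged 11.06 with LOC550643 siRNA, 10.63 with GAPDH siRNA and 11.14 with non-silencing siRNA. The FASN call was lost without LOC550643 replicate 1 or 2 or GAPDH replicate 1 or 3 (0.0857 to 0.137), the SCD call without LOC550643 replicate 2 or 3 or GAPDH replicate 2 (0.0508 to 0.0879) and the ELOVL1 call without any 1 of the 6 arrays (0.0554 to 0.120).

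Genes of the G2 and M phases of the cell cycle are switched on together before division, and many carry a CCAAT box and a cell cycle homology region with the letters TTTGAA near their start. The promoters of the mitotic kinesins that rose and of CDK1, which fell, are shown to set these motifs beside the opposite directions. Each is 300 bases of RefSeq sequence on GRCh38.p14, from 250 before to 50 after the gene start, read along the gene's strand. Capitals mark CCAAT or TTTGAA on either strand (ATTGG and TTCAAA on the other). KIF20A lies at chr5:138178862-138179161 (plus strand), KIF23 at chr15:69414099-69414398 (plus), KIF14 at chr1:200620702-200621001 (minus) and CDK1 at chr10:60778081-60778380 (plus).
KIF20A: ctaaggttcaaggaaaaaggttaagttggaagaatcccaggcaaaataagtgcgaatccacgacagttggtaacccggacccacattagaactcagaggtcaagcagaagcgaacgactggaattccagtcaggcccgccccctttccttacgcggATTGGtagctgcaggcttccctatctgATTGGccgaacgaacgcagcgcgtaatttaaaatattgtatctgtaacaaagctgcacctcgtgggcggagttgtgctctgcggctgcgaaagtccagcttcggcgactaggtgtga
KIF23: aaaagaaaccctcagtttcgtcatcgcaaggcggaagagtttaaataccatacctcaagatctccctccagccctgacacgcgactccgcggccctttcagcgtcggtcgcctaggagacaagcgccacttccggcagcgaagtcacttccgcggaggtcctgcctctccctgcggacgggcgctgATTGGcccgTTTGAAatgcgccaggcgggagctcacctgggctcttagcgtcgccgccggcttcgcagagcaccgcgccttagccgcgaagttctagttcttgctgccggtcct
KIF14: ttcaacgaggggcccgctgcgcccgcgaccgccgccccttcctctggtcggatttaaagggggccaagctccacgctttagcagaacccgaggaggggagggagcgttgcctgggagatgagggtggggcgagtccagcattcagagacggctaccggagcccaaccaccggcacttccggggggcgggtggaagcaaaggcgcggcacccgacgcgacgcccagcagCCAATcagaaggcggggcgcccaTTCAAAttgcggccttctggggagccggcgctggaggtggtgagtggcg
CDK1: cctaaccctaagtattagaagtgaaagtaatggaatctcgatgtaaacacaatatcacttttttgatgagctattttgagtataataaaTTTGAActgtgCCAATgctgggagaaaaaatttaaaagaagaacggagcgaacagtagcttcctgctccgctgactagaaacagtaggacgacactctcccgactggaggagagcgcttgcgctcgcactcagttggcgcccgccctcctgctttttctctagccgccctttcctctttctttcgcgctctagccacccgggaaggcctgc
The KIF20A window held CCAAT 2 times and no TTTGAA, and the other windows held each motif 1 time. CCAAT was found in 29 of 37 matched promoters of measured G2 and M genes (78.4%) and in 35.7% of all 27305 promoters, and TTTGAA in 25 of 37 (67.6%) and in 15.4%. Among genes called higher with LOC550643 siRNA and matched to a promoter, 13% of 300 held TTTGAA, against 4.5% of 200 called lower and 11.8% of 10749 genes tested. For CCAAT these shares were 38.7%, 37.5% and 36%.

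Of 41 measured G2 and M genes, 4 rose and 1 fell, 33 had a positive difference and the median was 0.19. KIF20A, a kinesin of cytokinesis, measured 9.09, 9.02 and 9.26 in LOC550643 siRNA arrays, against 8.31, 7.76 and 8.31 in GAPDH siRNA arrays and 8.48, 8.92 and 9.18 in non-silencing arrays. The LOC550643 and GAPDH siRNA arrays were separate, with a difference of 1.00 ± 0.16 (limma adjusted p = 0.00200). KIF23, which bundles microtubules of the midbody, averaged 9.62 with LOC550643 siRNA, 8.78 with GAPDH siRNA and 9.17 with non-silencing siRNA, a difference of 0.84. KIF14, another cytokinesis kinesin, averaged 7.76 with LOC550643 siRNA, 7.18 with GAPDH siRNA and 7.55 with non-silencing siRNA, a difference of 0.57. PLK4, the kinase of centriole duplication, averaged 7.65 with LOC550643 siRNA, 7.15 with GAPDH siRNA and 7.30 with non-silencing siRNA. KIF20B, a kinesin outside the list and chosen after its values were seen, rose by 0.64, and MKI67, the proliferation marker, by 0.59. CDK1, the kinase that drives entry into mitosis, measured 8.23, 8.12 and 8.72 in LOC550643 siRNA arrays, against 9.09, 8.88 and 9.18 in GAPDH siRNA arrays and 8.76, 9.09 and 9.09 in non-silencing arrays. Its difference from GAPDH siRNA was -0.69 ± 0.14 (limma adjusted p = 0.0115), and its LOC550643 siRNA arrays were the low ones. The CDK1 call was lost without LOC550643 replicate 1 or 2 (adjusted p of 0.0632 to 0.0637). That of PLK4 was lost without LOC550643 replicate 1 or 3 or GAPDH replicate 1 or 2 (0.0903 to 0.143), and that of MKI67 without any 1 LOC550643 replicate or GAPDH replicate 1 or 2 (0.0898 to 0.182).

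In G1/S and DNA replication 1 of 34 measured genes rose and 2 fell. CDK4, the kinase of G1, averaged 9.05 with LOC550643 siRNA, 9.67 with GAPDH siRNA and 9.52 with non-silencing siRNA, and MCM5, a subunit of the replicative helicase, 8.66 with LOC550643 siRNA, 9.21 with GAPDH siRNA and 8.88 with non-silencing siRNA. Both differences, -0.61 for CDK4 and -0.55 for MCM5, held without each array in turn. CCND1, cyclin D1, rose by 0.42, and the call was lost without LOC550643 replicate 1 or 2 or GAPDH replicate 1 or 2 (adjusted p of 0.0778 to 0.124). MYC, a transcription factor of growth, was the 1 called gene of 26 immediate early genes. It measured 6.69, 6.78 and 6.41 in LOC550643 siRNA arrays, against 5.63, 5.71 and 5.79 in GAPDH siRNA arrays and 6.26, 6.52 and 6.40 in non-silencing arrays. GAPDH siRNA was the low group, with a difference of 0.91 ± 0.11 (limma adjusted p = 2.07e-04).

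Of 20 measured topoisomerases and chromatin remodelers, 3 rose and 1 fell, 17 had a positive difference and the median was 0.22. TOP3A, a topoisomerase that resolves recombination intermediates, averaged 7.32 with LOC550643 siRNA, 6.70 with GAPDH siRNA and 7.26 with non-silencing siRNA, a difference of 0.61 ± 0.12 (limma adjusted p = 0.00828). TOP2B and CHD1 are described above, and CHD9, a remodeler related to CHD1, rose by 0.43. The CHD9 call (adjusted p = 0.0472) was lost without any 1 LOC550643 replicate and without GAPDH replicate 1 or 2 (0.0557 to 0.192).

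Of 23 measured DNA repair genes 5 fell and 1 rose (26.1%, against 4.08% of all genes tested), while 11 had a positive and 12 a negative difference, with a median of -0.06. APEX1, the main endonuclease of abasic sites, measured 8.85, 8.89 and 8.87 in LOC550643 siRNA arrays, against 9.72, 9.66 and 9.41 in GAPDH siRNA arrays and 9.86, 9.32 and 9.36 in non-silencing arrays. The LOC550643 siRNA arrays were below all others, by -0.73 ± 0.15 from GAPDH siRNA (limma adjusted p = 0.0100). MSH3, which recognises insertion loops in mismatch repair, averaged 7.10 with LOC550643 siRNA, 7.64 with GAPDH siRNA and 7.52 with non-silencing siRNA, a difference of -0.54. Its partner in mismatch recognition, MSH6, rose by 0.46. RAD51C, a recombination protein, fell by 0.49, UNG, the uracil glycosylase, by 0.36 and XRCC3, the partner of RAD51C, by 0.34. The MSH6 call was lost without any 1 of the 6 arrays (adjusted p of 0.0523 to 0.126). The RAD51C, UNG and XRCC3 calls were each lost without LOC550643 replicate 1 or 2 or GAPDH replicate 1 or 2, with adjusted p of 0.0556 to 0.119 for RAD51C, 0.0608 to 0.0888 for UNG and 0.0580 to 0.0984 for XRCC3.

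Translation factors held 2 higher and 3 lower genes of 16 measured. EIF5B, which joins ribosomal subunits at the start codon, measured 8.31, 8.10 and 8.35 in LOC550643 siRNA arrays, against 7.50, 7.51 and 7.34 in GAPDH siRNA arrays and 7.95, 8.18 and 8.07 in non-silencing arrays. GAPDH siRNA was the low group of these, with a difference of 0.80 ± 0.10 (limma adjusted p = 3.44e-04). EIF5B was also below the non-silencing mean (8.07) with DcpS siRNA (7.59), though not with Dcp2 siRNA (8.14). Its fall was thus not particular to GAPDH siRNA. The inhibitors of eIF4E went opposite ways. EIF4EBP2 averaged 10.56 with LOC550643 siRNA, 9.83 with GAPDH siRNA and 10.25 with non-silencing siRNA, a rise of 0.72. EIF4EBP1 averaged 8.44 with LOC550643 siRNA, 9.05 with GAPDH siRNA and 9.12 with non-silencing siRNA, a difference of -0.61 that was lost without LOC550643 replicate 1 or 2 or GAPDH replicate 2 (adjusted p of 0.0580 to 0.0761). EEF1G, a subunit of the elongation factor that recharges eEF1A, averaged 11.73 with LOC550643 siRNA, 12.20 with GAPDH siRNA and 12.11 with non-silencing siRNA. Its difference of -0.47 became -0.27 with an adjusted p of 0.0564 when its probe sets were averaged. EIF4B, a cofactor of the cap helicase, fell by 0.27 and lost its call without any 1 of the 6 arrays (0.0698 to 0.134). No gene was called of 43 measured cytoplasmic ribosomal proteins, and their differences ranged from -0.24 to 0.21. Among 26 genes of the amino acid response, beside SARS1, STC2, a secreted glycoprotein also listed under hypoxia, rose by 0.57, and KARS1, the lysyl-tRNA synthetase, averaged 9.69 with LOC550643 siRNA, 10.02 with GAPDH siRNA and 9.61 with non-silencing siRNA. The KARS1 call was lost without LOC550643 replicate 2 or 3 or GAPDH replicate 1 or 2 (0.0842 to 0.110).

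Zinc finger proteins with a KRAB domain silence transposable elements and other genes. Of 81 measured members, 69 had a positive difference and the median was 0.24, while 5 (6.17%) rose and none fell. ZNF420 measured 6.73, 6.46 and 6.69 in LOC550643 siRNA arrays, against 5.88, 5.77 and 6.17 in GAPDH siRNA arrays and 6.03, 6.55 and 6.35 in non-silencing arrays, and ZNF382 measured 6.35, 6.66 and 6.40 in LOC550643 siRNA arrays, against 5.87, 5.99 and 5.52 in GAPDH siRNA arrays and 6.03, 6.09 and 6.13 in non-silencing arrays. In both the LOC550643 and GAPDH siRNA arrays were separate, with differences of 0.69 and 0.68. The median difference of the 81 genes was 0.25 for LOC550643 siRNA and 0.03 for GAPDH siRNA against non-silencing siRNA. Over all 471 genes named ZNF, a list chosen after values were seen, 335 (71.1%) had a positive difference, 25 rose and 1, ZNF428, fell. Zinc finger genes share repeated coding sequence, so single members are uncertain where probes could detect a paralog. Some were also dim: ZNF493 averaged 4.51 with LOC550643 siRNA, 3.79 with GAPDH siRNA and 4.13 with non-silencing siRNA, near the array medians of 4.01 to 4.08. ZNF493, ZNF45 and ZNF460 were the other called KRAB genes, and each of the 5 lost its call without at least 1 array. The adjusted p then reached 0.0653 for ZNF420 (without LOC550643 replicate 1 or GAPDH replicate 1 or 2), 0.0727 for ZNF382 (without LOC550643 replicate 2 or GAPDH replicate 3) and 0.104 for ZNF45 (without LOC550643 replicate 1 or GAPDH replicate 2 or 3). It reached 0.133 for ZNF460 (without LOC550643 replicate 1 or 2 or GAPDH replicate 1 or 2), 0.110 for ZNF428 (without LOC550643 replicate 1 or 2 or GAPDH replicate 1 or 3) and 0.160 for ZNF493, which lost its call without any 1 of the 6 arrays.

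**Figure D5:**
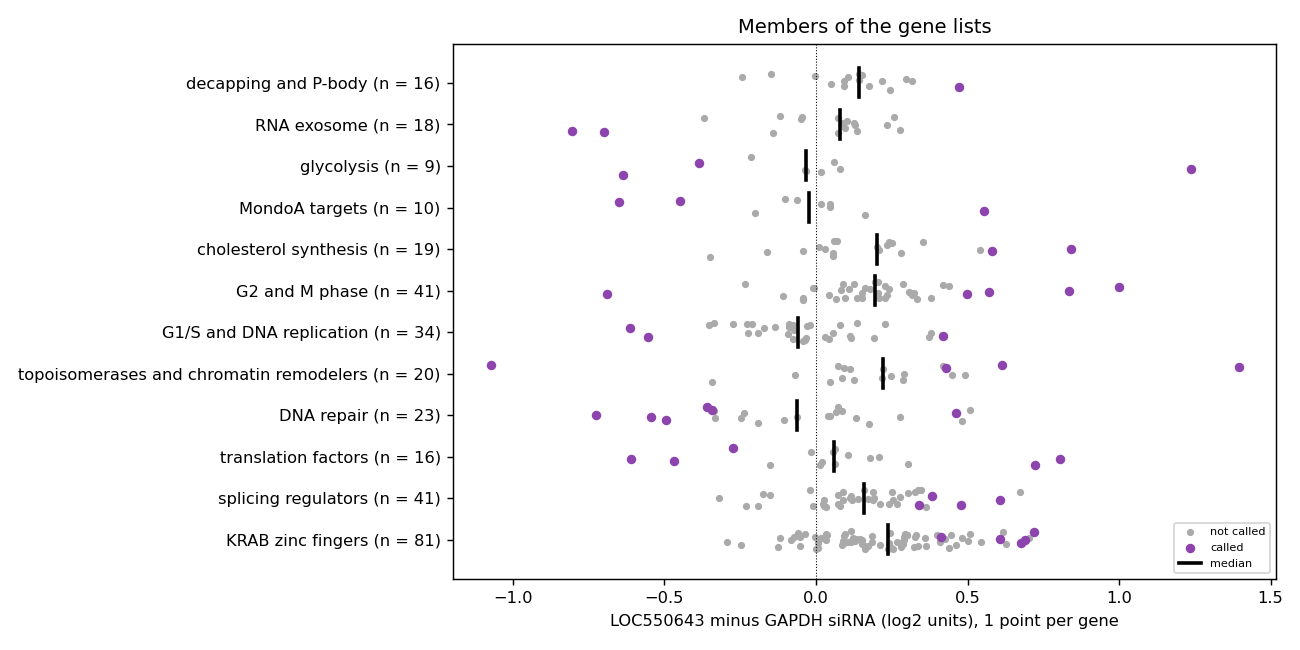
Each point is a measured member of a gene list, placed by its difference LOC550643 minus GAPDH siRNA (log2 units, horizontal axis), with called genes in purple, other genes in grey and a bar at the list median. The KRAB zinc fingers (median 0.24), the G2 and M genes (0.19) and the cholesterol genes (0.20) lie mostly right of 0, while 5 of the 6 DNA repair calls lie left of it.

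Splicing regulators included 4 higher and no lower genes among 41, with 34 positive differences and a median of 0.16. MBNL1 and MBNL2, the muscleblind regulators of alternative exons, rose by 0.61 and 0.48, HNRNPA0 by 0.38 and PTBP1, the polypyrimidine tract binding protein, by 0.34. PTBP1 measured 12.07, 12.02 and 11.97 in LOC550643 siRNA arrays, against 11.72, 11.63 and 11.69 in GAPDH siRNA arrays and 11.91, 12.00 and 11.97 in non-silencing arrays, so that its groups of LOC550643 and GAPDH siRNA did not overlap. When the probe sets of MBNL1 were averaged, its difference was 0.26 with an adjusted p of 0.166. Each of the 4 calls was lost without LOC550643 replicate 1, and MBNL1, MBNL2 and HNRNPA0 also without GAPDH replicate 1, with adjusted p of 0.0530 to 0.0690 for MBNL1, 0.0524 to 0.0558 for MBNL2, 0.108 to 0.143 for HNRNPA0 and 0.0563 to 0.0811 for PTBP1 over the arrays concerned. These also included LOC550643 replicate 2 and GAPDH replicate 2 for MBNL1 and PTBP1, and LOC550643 replicate 3 and GAPDH replicate 3 for HNRNPA0.

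Among nucleotide synthesis and salvage genes, 2 of 22 rose and 2 fell. Besides DNPH1, the phosphoribosyl pyrophosphate synthetases moved oppositely. PRPS1 averaged 9.26 with LOC550643 siRNA, 8.77 with GAPDH siRNA and 9.20 with non-silencing siRNA. PRPS2 averaged 9.65 with LOC550643 siRNA, 10.04 with GAPDH siRNA and 10.10 with non-silencing siRNA. The first had departed with GAPDH siRNA and the second with LOC550643 siRNA. The PRPS2 call was lost with only the compared arrays (adjusted p = 0.0669). IMPDH2, the enzyme that commits purines to guanine nucleotides, averaged 9.45 with LOC550643 siRNA, 10.04 with GAPDH siRNA and 9.91 with non-silencing siRNA, a difference of -0.59 ± 0.09 (limma adjusted p = 9.02e-04). Ubiquitin proteases held 3 higher and no lower genes of 38, namely USP25, USP46 (0.41) and USP7 (0.30). With only the compared arrays USP46 lost its call (adjusted p = 0.0570). The USP7 call was lost without LOC550643 replicate 1 or 2 or any 1 GAPDH replicate (adjusted p of 0.0962 to 0.191).

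Of 17 measured genes of endoplasmic reticulum folding 1 fell and none rose, and of 17 oxidative stress genes 2 fell and none rose, with 9 positive differences in each list. HYOU1, a chaperone of the endoplasmic reticulum, measured 8.02, 7.96 and 7.86 in LOC550643 siRNA arrays, against 8.74, 8.80 and 8.76 in GAPDH siRNA arrays and 8.73, 8.79 and 8.73 in non-silencing arrays. The GAPDH and non-silencing arrays lay close together and above every LOC550643 array, and HYOU1 was -0.82 ± 0.09 from GAPDH siRNA (limma adjusted p = 7.55e-05). PRDX2, a peroxiredoxin that reduces peroxide, averaged 9.28 with LOC550643 siRNA, 9.91 with GAPDH siRNA and 10.00 with non-silencing siRNA, a difference of -0.64. CAT, catalase, fell by 0.50 and was called for neither siRNA against non-silencing siRNA. The CAT call was lost without LOC550643 replicate 1 or 2 or GAPDH replicate 1 or 3 (adjusted p of 0.0600 to 0.116). In the actin and tropomyosin list, DIAPH1, a formin that nucleates actin, averaged 6.64 with LOC550643 siRNA, 7.25 with GAPDH siRNA and 7.52 with non-silencing siRNA, and TLN1, which links integrins to actin, rose by 0.40. The TLN1 call was lost without LOC550643 replicate 1 or 2 or GAPDH replicate 1 or 3 (0.0609 to 0.152). Interferon response genes gave 1 rise and 1 fall of 22, IFIT5 by 0.59 and HERC5 by -0.39. The IFIT5 call was lost without LOC550643 replicate 1 or GAPDH replicate 1 (0.0619 to 0.0809), and the HERC5 call without any 1 LOC550643 replicate or GAPDH replicate 1 or 2 (0.0513 to 0.144).

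No gene was called among 12 measured genes of the citric acid cycle and pyruvate, 12 p53 targets, 20 apoptosis genes, 12 cytosolic chaperones and 15 respiratory chain genes. In the p53 list BBC3 had the largest difference, -0.26 (adjusted p = 0.351), and MCL1, an inhibitor of apoptosis, averaged 8.02 with LOC550643 siRNA, 7.54 with GAPDH siRNA and 7.53 with non-silencing siRNA (adjusted p = 0.15). The heat shock gene HSPA1A averaged 11.07 with LOC550643 siRNA, 10.68 with GAPDH siRNA and 10.93 with non-silencing siRNA, with overlapping groups. No fibroblast, endothelial, epithelial or liver marker was called, of 5 and 7 measured. No proteasome subunit was on a named probe set.

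MicroRNA genes had few calls, 2 higher and 6 lower of 1072 (0.746%), and are a list chosen after values were seen. The sequences of the 3 lower ones with levels above 4 in both siRNA groups are shown for identity, as RefSeq gives them on GRCh38.p14, with the seed of each mature form (bases 2 to 8) in capitals. For MIR4748 the hairpin is shown, without a seed, at chr19:10780254-10780335 (plus strand). The mature forms lie at chr19:18282129-18282151 (plus) for hsa-miR-3188, chr19:45639009-45639031 (minus) for hsa-miR-330-3p and chr19:45639049-45639070 (minus) for hsa-miR-330-5p, and no seed is shared.
MIR4748 hairpin: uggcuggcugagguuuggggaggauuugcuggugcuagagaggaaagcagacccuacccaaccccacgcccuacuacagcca
hsa-miR-3188: aGAGGCUUugugcggauacgggg
hsa-miR-330-3p: gCAAAGCAcacggccugcagaga
hsa-miR-330-5p: uCUCUGGGccugugucuuaggc
The probe set of MIR4748 measured 4.06, 5.58 and 5.86 in LOC550643 siRNA arrays, against 6.61, 6.62 and 6.96 in GAPDH siRNA arrays and 6.50, 6.01 and 6.50 in non-silencing arrays. LOC550643 replicate 1 was far below the other 2 replicates, and the difference of -1.56 ± 0.33 lost its call without GAPDH replicate 3 (adjusted p = 0.0536) and with only the compared arrays (adjusted p = 0.0857). Without LOC550643 replicate 1 the MIR4748 difference was -1.01. MIR330 measured 5.25, 5.03 and 5.06 in LOC550643 siRNA arrays, against 5.70, 5.59 and 5.79 in GAPDH siRNA arrays and 5.35, 5.38 and 5.64 in non-silencing arrays, a difference of -0.58 ± 0.14. MIR3188 averaged 4.53 with LOC550643 siRNA, 5.23 with GAPDH siRNA and 4.67 with non-silencing siRNA. The MIR330 call was lost without LOC550643 replicate 2 or 3 or GAPDH replicate 1 or 3 (adjusted p of 0.0833 to 0.0964), and the MIR3188 call without any 1 LOC550643 replicate or GAPDH replicate 2 or 3 (0.0642 to 0.150). A whole-transcript array probes the gene region, so these values do not separate a mature microRNA from its precursor or a host transcript.

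The threshold fell between genes of like size. Just inside it stood TXNIP (-0.65, adjusted p = 0.0497) and EMC9, a subunit of an endoplasmic reticulum membrane complex (0.32, adjusted p = 0.0499). Just outside stood SCARNA16 (0.56, adjusted p = 0.0502) and SNX6, a retromer-associated sorting nexin (0.34, adjusted p = 0.0505). The EMC9 call was lost without LOC550643 replicate 1 or 2 or GAPDH replicate 1 or 2 (0.116 to 0.192).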

How the data were processed

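Total RNA from HEK293T cells was hybridised to Affymetrix whole-transcript arrays. The deposited values were probe set summaries that the authors made with RMA and the oligo package, per the submitters' processing notes, on a log2 scale whose base was inferred from the range. Versions, probe set definitions and genome build are not given in the sources used here. RMA equalises the distributions of arrays, so a shift of all transcripts cannot be seen. Groups and replicate numbers came from the titles.

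GEO's platform annotation named 16098 of 53617 probe sets with 1 gene symbol each. The brightest probe set per gene over the 15 arrays was kept, giving 14884 genes without a filter on low values. These were fitted in limma 3.58.1 (R 4.3.3) with 1 mean per siRNA group over all 15 arrays, 10 residual degrees of freedom, and Benjamini-Hochberg adjustment over all genes. The number of arrays limits the precision. Genes were named by rule: silenced genes, the 15 largest called differences in each direction with separate arrays (leaving out small RNAs and pseudogenes), the 5 largest per class, and up to 4 called members per list. Other genes were chosen after their values were seen, as were 7 of the gene lists. The gene lists and members were chosen with earlier results of these data known. The fit was tested on simulated data. Promoters and microRNA sequences came from RefSeq, of which the first entry per gene was read. Alternatives were a replicate block, the compared arrays alone, further normalisations, a filter on dim genes, averaged probe sets, an intensity trend, array weights, the within-group axis as a covariate, each array left out, and a threshold on size.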

Additional observations from a re-analysis of the deposited data

Results flagged for a closer look

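Probe sets with no gene name were not used for the comparisons above. In the same limma model, adjusted over these 37519 probe sets, 203 (0.541%) were called between LOC550643 and GAPDH siRNA, 100 higher and 103 lower with LOC550643 siRNA. The count was 103 without LOC550643 replicate 1, 112 without LOC550643 replicate 2, 135 without LOC550643 replicate 3, 116 without GAPDH replicate 1 and 124 without GAPDH replicate 2.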

How the results depend on the processing

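No called gene changed sign under an alternative that measured it, but the groups of 607 of the 608 do not overlap, so leaving out an array could not turn those. Of 132 named called genes, 75 stayed called without each array in turn and 69 under all 15 alternatives; 52 calls were lost with only the compared arrays, 4 of which held without each array. With only the compared arrays the counts were 280 called (175 higher, 105 lower), 51 on the LOC550643 side, 76 on the GAPDH side, 2 on both and 151 on neither. With the axis score as a covariate they were 1092 called (677 higher, 415 lower), 271 on the GAPDH side, 15 on both and 647 on neither. With a log2 difference of at least 0.5 also required they were 335 called (222 higher, 113 lower), 64 on the LOC550643 side, 83 on the GAPDH side, 1 on both and 187 on neither. Leaving out 1 of the 6 compared arrays at a time gave 304 to 478 called, 162 to 289 higher, 136 to 214 lower and 103 to 154 unnamed probe sets. The difference of the GAPDH transcript then ranged from 1.10 to 1.31. The classes were also counted without each of the 3 non-silencing arrays. Over all these settings they held 48 to 98 on the LOC550643 side, 80 to 131 on the GAPDH side, 1 to 4 on both and 146 to 511 on neither. Without non-silencing replicate 1, 672 genes were called between LOC550643 and GAPDH siRNA. COX6A1, not called at -0.17, was 0.027 when its probe sets were averaged. Causes of these changes were not tested.

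The replicate numbers were not taken to pair the arrays, since not every correlation was above 0.1: deviations from the group means of same-numbered LOC550643 and GAPDH siRNA arrays correlated at -0.024, 0.058 and 0.254, and replicate 3 had a negative axis score in all 5 groups. With the replicate block 659 genes were called (419 higher, 240 lower), 575 of them among the 608, and 161 unnamed probe sets. Quantile normalisation gave 565 calls (267 higher, 298 lower) and median centring 604 (300 higher, 304 lower). Calls rest on 3 arrays per siRNA and on the spread shared by all 5 groups.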

Other observations

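Other gene groups were looked up after values were seen and are given as counts. Of 31 Mediator subunits, which link transcription factors to RNA polymerase II, 4 rose and 1 fell with LOC550643 siRNA relative to GAPDH siRNA (16.1%, against 4.08% of all genes tested). MED21, a subunit of the middle module, averaged 7.48 with LOC550643 siRNA, 6.73 with GAPDH siRNA and 7.18 with non-silencing siRNA, a difference of 0.75 ± 0.13 (SE, limma adjusted p = 0.00379). MED12L rose by 0.64, MED12 by 0.56 and MED1 by 0.50, and in each the GAPDH siRNA mean was the lowest. MED24 fell by 0.34. The MED12L call was lost with only the compared arrays (adjusted p = 0.0559). The MED12 call was lost without LOC550643 replicate 1 or 2 or GAPDH replicate 1 (adjusted p of 0.0838 to 0.129), and the MED24 call without any 1 LOC550643 replicate or GAPDH replicate 2 or 3 (0.0529 to 0.137). In the Notch pathway, a cell contact signalling route, 4 of 30 genes rose and none fell (13.3%, against 4.08% of all genes tested), while 11 differences were negative and the median was 0.05. RBPJ, its DNA-binding factor, averaged 7.72 with LOC550643 siRNA, 6.80 with GAPDH siRNA and 7.68 with non-silencing siRNA, a difference of 0.92 ± 0.13. NRARP and HEY1, both Notch target genes, rose by 0.68 and 0.72, and MAML1, the coactivator, by 0.52. HEY1 lost its call without LOC550643 replicate 1 (0.0626), and MAML1 without LOC550643 replicate 1 or 3 or GAPDH replicate 1 or 2 (0.107 to 0.162).

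Genes of mitochondrial ribosomes and protein import were looked up beside the respiratory chain list, in which none of 15 genes was called by limma. Of 78 mitochondrial ribosomal proteins 5 fell and 1 rose (7.69%, against 4.08% of all genes tested), and 51 had a negative difference. Of these 6 calls, MRPL54 was lost without LOC550643 replicate 1 or 3 or GAPDH replicate 1 or 3 (adjusted p of 0.0753 to 0.159), MRPL34 without LOC550643 replicate 1 (0.0598), MRPS7 without any 1 LOC550643 replicate or GAPDH replicate 1 or 2 (0.0733 to 0.120) and MRPS15 without LOC550643 replicate 2 or GAPDH replicate 1 or 2 (0.0525 to 0.0766). MRPL9 averaged 8.35 with LOC550643 siRNA, 8.91 with GAPDH siRNA and 8.59 with non-silencing siRNA, and MRPL11 averaged 7.31 with LOC550643 siRNA, 7.91 with GAPDH siRNA and 7.64 with non-silencing siRNA. Of 23 genes of mitochondrial protein import, 4 fell and none rose (17.4%). The TIMM13 call was lost without LOC550643 replicate 1 or 2 or any 1 GAPDH replicate (0.0529 to 0.148), and the TIMM17B call without any 1 LOC550643 replicate or GAPDH replicate 1 or 2 (0.0743 to 0.137). TOMM22, the receptor of the outer membrane translocase, averaged 7.82 with LOC550643 siRNA, 8.49 with GAPDH siRNA and 7.81 with non-silencing siRNA, a difference of -0.67 ± 0.12. TOMM40, the pore of the same complex, averaged 8.80 with LOC550643 siRNA, 9.31 with GAPDH siRNA and 9.28 with non-silencing siRNA, and its difference of -0.51 became -0.33 (adjusted p = 0.0561) when its probe sets were averaged. TOMM22 had thus departed from the non-silencing level with GAPDH siRNA and TOMM40 with LOC550643 siRNA.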
